A study of Mus musculus with 6 samples.

Results

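Transcripts of 8 genes of the PI3K-AKT-FOXO pathway were compared between mTOR-deficient and wild-type (WT) monocytic myeloid-derived suppressor cells (M-MDSCs). The genes were taken by name from a table of 34745 mouse genes, without use of their values: Pik3cd and Pik3cg, Irs2, Akt1 and Akt2, Sgk1, Foxo1 and Foxo3. RNA sequencing gave 3 libraries labelled mTOR-KO and 3 labelled WT, all on the C57BL/6 strain. The mTOR-KO cells came from Lyz-mTOR mice, in which a Cre recombinase driven by the lysozyme gene deletes a floxed Mtor in myeloid cells. The WT mice were bought C57BL/6 animals, so Cre and the floxed allele differ between the groups together with Mtor, and cells in which Cre was not active keep Mtor. According to the study's methods, marrow of both genotypes was cultured with GM-CSF and IL-6 to induce MDSCs, whereas the sample labels give bone marrow as the source and speak of fresh sorted cells. Mice of each genotype are stated as n = 3, but not whether each library came from its own mouse, and their age and sex were not given in the sources used here, so p-values measure the spread between these libraries.

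In the PI3K pathway, receptors and adaptors such as IRS2 recruit class I PI3K, whose lipid product brings AKT to the membrane. There PDK1 and the mTOR complex mTORC2 phosphorylate AKT, and mTORC2 also switches on the related kinase SGK1. Active AKT and SGK1 phosphorylate FOXO1 and FOXO3, which then leave the nucleus, so FOXO target genes are on when the kinases are off. mTORC1, the other complex of mTOR, restrains the pathway upstream through IRS proteins. In leukocytes the PI3K catalytic subunits p110δ (Pik3cd) and p110γ (Pik3cg) dominate and serve growth factor, cytokine and chemokine receptors. Most of this regulation acts on proteins, which RNA counts do not measure.

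None of the 8 genes passed the main test, the quasi-likelihood F test of edgeR, whose p-values were adjusted by Benjamini-Hochberg over all 12537 genes tested. All 8 were tested, 4 were higher and 4 lower in the libraries labelled mTOR-KO, and their adjusted p lay between 0.0769 for Sgk1 and 0.947 for Foxo3. Over all tested genes 4.04% had an adjusted p under 0.05 (2.18% higher and 1.87% lower), and 1.69% were also changed at least 2-fold (1.04% higher and 0.654% lower). At an unadjusted p under 0.05 there was 1 of the 8, Sgk1, and 21.2% of all tested genes. DESeq2 also called Sgk1 alone, at an adjusted p of 0.0188, where it called 9.13% of all genes. The 95% intervals of the 8 log2 fold changes reached from -0.47 for Pik3cd to 0.80 for Irs2, so a 2-fold change in either direction, a log2 of 1, lay outside each of them. The median log2 fold change of the 8 was 0.070, against 0.0049 over all tested genes, and their median absolute change was 0.15 against 0.22.

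**Figure D1:**
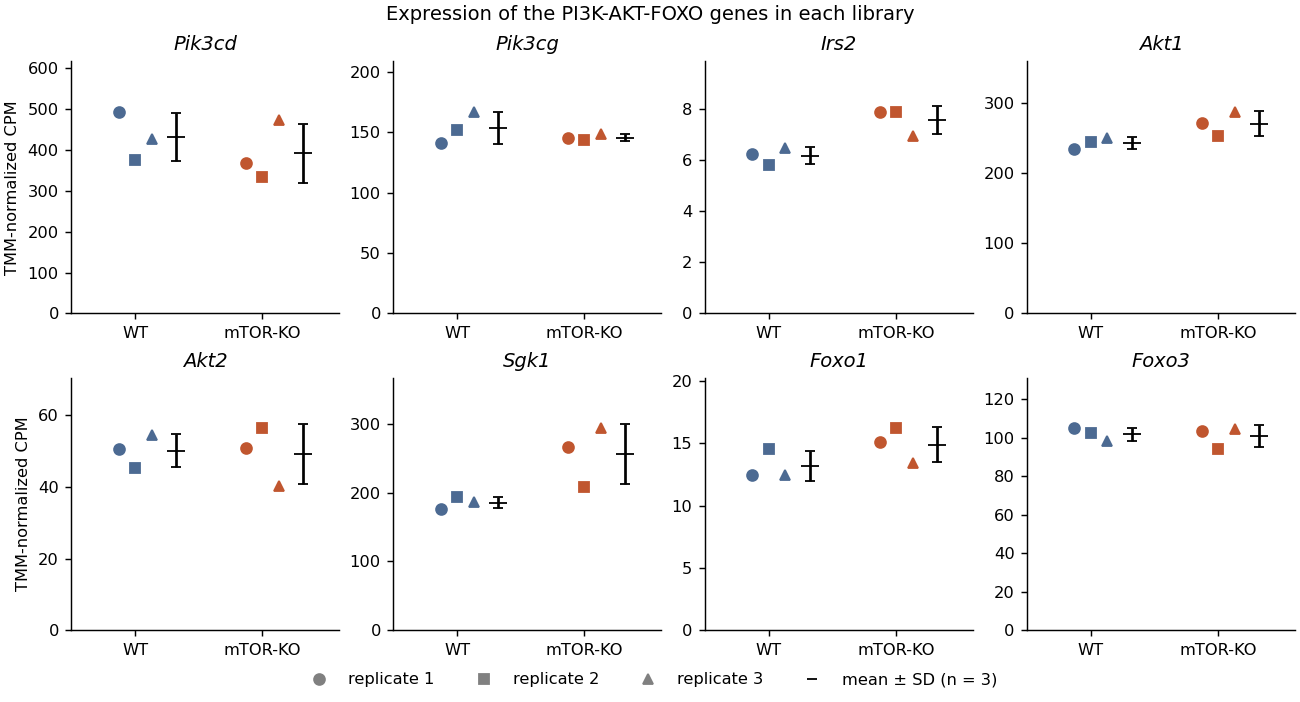
CPM (read counts scaled to library size with TMM factors, vertical axis from 0) of the 8 genes in each library, with replicates 1 to 3 as circles, squares and triangles and the mean ± SD (n = 3) beside them. Sgk1, Akt1 and Irs2 were higher in each mTOR-KO library than in each WT library, and the groups of the other 5 genes overlapped.

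The libraries held 12317507 to 14768126 counts on genes, and a count of 3, taken as the detection floor, was 0.203 to 0.244 CPM, far below the 8 genes. Floors cover counting error only, because PCR copies of a molecule are counted as separate reads. Mtor itself had 883, 983 and 908 counts in the libraries labelled mTOR-KO and 980, 875 and 929 in WT (log2 fold change 0.15, standard error 0.11, edgeR adjusted p = 0.442). Counts over the whole gene therefore did not separate the labels, and a deletion of some exons was not analysed here. Lyz2, the gene that carries the Cre in Lyz-Cre mice, was lower in the libraries labelled mTOR-KO (log2 fold change -1.68, edgeR adjusted p = 0.00255). All directions rest on the labels. Replicate 3 labelled mTOR-KO stood apart: its mean correlation with its own group was 0.954, against 0.963 to 0.980 for the other libraries. The M-MDSC markers Itgam and Ly6c2 were present in all libraries, with Ly6c2 at 72.6 to 104 CPM in mTOR-KO and 116 to 226 CPM in WT. Ly6g, which an M-MDSC gate should lack, was at 10.7 to 15.1 CPM in mTOR-KO and 0.853 to 5.06 CPM in WT (log2 fold change 2.26, edgeR adjusted p = 0.0365). Summed over its whole list of 6 genes, the mast cell and basophil signal was 357 to 450 CPM in mTOR-KO and 1125 to 1209 CPM in WT. Of these genes 3 were called lower, Cpa3, Mcpt8 and Gata2 (log2 fold changes -2.37, -1.09 and -0.79). Beside these and the following marker counts, edgeR called 2.18% of all tested genes higher and 1.87% lower. An unadjusted p under 0.05 was found for 21.2% of all tested genes, and DESeq2 called 9.13%. The 8 dendritic cell markers summed to 282 to 410 CPM in mTOR-KO and 102 to 208 CPM in WT, with 2 called higher, Ccr7 and Clec10a, and Siglech at 0 in every library. Among the monocyte markers, Itgam is listed under 2 gene IDs, and both entries are in the sums. In mTOR-KO replicates 1, 2 and 3 they were at 820, 647 and 1028 CPM and at 387, 419 and 161 CPM. Neither Itgam entry was called (edgeR adjusted p = 0.599 and 0.995). The sums in mTOR-KO and WT were 3341 to 3639 and 2533 to 2879 CPM for the 8 monocyte markers, with 4 called higher and 1 lower. Those higher were Fn1, F13a1, Chil3 and Csf1r (log2 fold changes 1.36, 1.12, 0.503 and 0.495), and Ly6c2 was lower. The sums were 2369 to 2698 and 2105 to 2429 CPM for the 9 neutrophil markers, with 2 called higher and 2 lower. Ly6g and S100a8 were higher (log2 fold changes 2.26 and 0.619), and Ltf and Ngp were lower (-2.04 and -0.561). The 8 macrophage markers gave 536 to 658 and 662 to 745 CPM with 0 called by edgeR, 2 at an unadjusted p under 0.05 and 1 by DESeq2. Markers of T and B cells stayed at 4.36 CPM or less in sum, with Cd3e at 0 in every library, and erythroid markers at 5.63 CPM or less. The part of cell composition in the results was not tested, and in bulk RNA fewer cells of a type and less RNA per cell cannot be told apart.

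Pik3cd encodes p110δ, the PI3K catalytic subunit of leukocytes that acts mainly behind tyrosine kinase-linked receptors (ENSMUSG00000039936, chromosome 4, 149649168 to 149702571 on mm10). It was at 367, 334 and 471 CPM in mTOR-KO replicates 1, 2 and 3 and at 493, 375 and 426 CPM in WT. The groups overlapped, and replicate 3 was the highest of the mTOR-KO libraries. The means were 391 ± 71.6 and 431 ± 59.5 CPM (SD, n = 3 each), a log2 fold change of -0.14 (95% interval -0.47 to 0.19, edgeR adjusted p = 0.62). The size of this change rested on single libraries: it was -0.30 without mTOR-KO replicate 3, -0.24 without WT replicate 2, -0.051 without mTOR-KO replicate 2 and -0.043 without WT replicate 1 (lowest edgeR adjusted p of these fits 0.218). Counting error alone would give a coefficient of variation of 1.34% at these counts. The observed coefficients were 18.3% in mTOR-KO and 13.8% in WT.

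Pik3cg encodes p110γ, which answers to G protein-coupled receptors such as those for chemokines (ENSMUSG00000020573, chromosome 12, 32173473 to 32208659). Its values were 145, 143 and 149 CPM in mTOR-KO and 141, 152 and 167 CPM in WT. The mTOR-KO libraries lay close together, inside the WT range, with a coefficient of variation of 1.81%. The log2 fold change was -0.075 (95% interval -0.29 to 0.13, edgeR adjusted p = 0.687). The ratio of Pik3cd to Pik3cg counts, which does not depend on library size, was 2.52, 2.33 and 3.17 in mTOR-KO and 3.49, 2.46 and 2.55 in WT. The groups overlapped (log2 difference -0.076, two-sided exact permutation test, p = 0.6, adjusted over 4 ratios p = 0.7, where 0.1 is the smallest p possible). The sign of this difference turned without mTOR-KO replicate 2, to 0.017, and without WT replicate 1, to 0.084, and it was -0.20 without mTOR-KO replicate 3.

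The start of Pik3cg is shown because it holds a match to a FOXO site together with one to a site of PU.1, the myeloid lineage factor. It is the 250 bases before a RefSeq start site at chr12:32208471-32208720, GRCm38.p6, minus strand, with the matches in capitals, GTAAACA for FOXO and the reverse complement of GAGGAAGT for PU.1.
Pik3cg: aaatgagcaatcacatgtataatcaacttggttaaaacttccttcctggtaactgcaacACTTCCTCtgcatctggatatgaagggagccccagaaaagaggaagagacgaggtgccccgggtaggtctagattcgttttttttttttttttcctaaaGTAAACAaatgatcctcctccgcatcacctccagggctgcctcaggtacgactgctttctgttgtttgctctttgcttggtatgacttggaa
Windows of 300 bases, 250 before and 50 after each RefSeq start site, were searched on both strands. The FOXO letters were found in 3.65% of all 32851 windows and the PU.1 letters in 3.2%. Of 20 windows of the 8 genes, 2 held the FOXO letters, in Pik3cg and Akt1. The PU.1 letters were in 2, both of Pik3cg, whose windows overlap and share the same match. A match describes letters and does not show binding.

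Irs2 encodes an adaptor that couples the insulin and IGF1 receptors, and some cytokine receptors, to PI3K, and is a known FOXO target in liver (ENSMUSG00000038894, chromosome 8, 10986980 to 11008458). It was at 7.91, 7.87 and 6.96 CPM in mTOR-KO and at 6.25, 5.81 and 6.48 CPM in WT. Every mTOR-KO library was above every WT library, as for 14.5% of all tested genes in this direction. The log2 fold change of 0.29 did not pass the test (95% interval -0.21 to 0.80, edgeR adjusted p = 0.485). With 85 to 102 counts per library, counting error alone gives a coefficient of variation of 10.4%, while 7.08% and 5.56% were seen within the groups. Irs1, the related adaptor, had 0 counts in every library. An antisense gene, 9530052E02Rik, overlaps Irs2 and had 0 counts throughout. It spans 11007850 to 11054541, so most of it lies outside Irs2. The strand setting of the counting was not given in the sources used here, so reads from the shared stretch cannot be told apart. The FOXO letters were not in the Irs2 window, which held an E-box, CACGTG. The E-box was in 2 of the 20 windows of the 8 genes, of Irs2 and Sgk1, and in 7.15% of all windows.

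Akt1 encodes the AKT kinase found in most cells (ENSMUSG00000001729, chromosome 12, 112653821 to 112674884). Its values were 271, 253 and 288 CPM in mTOR-KO and 235, 244 and 251 CPM in WT. The groups did not overlap, but the gap between the lowest mTOR-KO and the highest WT library was small beside the spread. The means were 271 ± 17.6 and 243 ± 8.03 CPM (SD, n = 3 each), a log2 fold change of 0.15 (95% interval -0.043 to 0.35, edgeR adjusted p = 0.349). One of its RefSeq windows held a FOXO match 155 to 161 bases before the start site. It is shown as the 250 bases before that site, chr12:112674885-112675134, GRCm38.p6, minus strand, with the reverse complement of GTAAACA in capitals.
Akt1: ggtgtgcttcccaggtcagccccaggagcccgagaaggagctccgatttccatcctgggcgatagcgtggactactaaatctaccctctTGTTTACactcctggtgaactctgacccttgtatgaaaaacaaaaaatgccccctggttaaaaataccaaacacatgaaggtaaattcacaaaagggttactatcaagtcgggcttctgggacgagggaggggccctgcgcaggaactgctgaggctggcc
Akt2 encodes the AKT kinase best known from insulin-driven glucose uptake (ENSMUSG00000004056, chromosome 7, 27591552 to 27640826). It was at 51.0, 56.4 and 40.2 CPM in mTOR-KO and 50.7, 45.3 and 54.5 CPM in WT. The lowest and the highest of the 6 values were both mTOR-KO, replicates 3 and 2. The log2 fold change was -0.027 (95% interval -0.36 to 0.31, edgeR adjusted p = 0.939), and its sign turned without mTOR-KO replicate 3, to 0.094, and without WT replicate 3, to 0.034. The count ratio of Akt2 to Akt1 was 0.188, 0.223 and 0.139 in mTOR-KO and 0.216, 0.186 and 0.217 in WT. These overlapped as well (log2 difference -0.19, two-sided exact permutation test, p = 0.7, adjusted p = 0.7).

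Sgk1, the serum- and glucocorticoid-induced kinase, is an AKT relative that depends on mTORC2 and shares FOXO3 as a substrate (ENSMUSG00000019970, chromosome 10, 21882184 to 21999903). It had the largest change of the 8 genes, at 267, 208 and 294 CPM in mTOR-KO against 177, 193 and 187 CPM in WT. Each mTOR-KO library was above each WT library, replicate 2 by the least. The means were 256 ± 43.9 and 186 ± 8.35 CPM (SD, n = 3 each), 1.38-fold higher with a 95% interval of 1.13 to 1.68. The log2 fold change was 0.47 (standard error 0.13, unadjusted p = 0.00478 and adjusted p = 0.0769, both from edgeR), which ranked 780 of 12537 by p. The call turned on the tool and on 1 library: DESeq2 gave an adjusted p of 0.0188, and edgeR without mTOR-KO replicate 2 gave a log2 fold change of 0.59 (adjusted p = 0.0193). The edgeR adjusted p reached 0.25 in the other fits that left out a library. The spread was wider in mTOR-KO, with a coefficient of variation of 17.1% against 4.50% in WT. The ratio of Sgk1 to Akt1 counts was 0.986, 0.823 and 1.02 in mTOR-KO and 0.752, 0.792 and 0.746 in WT. It was higher in 3 of 3 mTOR-KO libraries (log2 difference 0.30, two-sided exact permutation test, p = 0.1, the smallest possible, adjusted p = 0.4).

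The Sgk1 promoter is shown because the gene is induced by glucocorticoids, and 1 of its 6 RefSeq windows held the full palindromic glucocorticoid response element, as the letters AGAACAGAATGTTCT. That element was found in 3 of 32851 windows, 0.00913%. The 250 bases before that start site, chr10:21993640-21993889, GRCm38.p6, plus strand, have the match in capitals, 175 to 189 bases before the site. An E-box, left in lower case, lies 241 to 246 bases before the site.
Sgk1: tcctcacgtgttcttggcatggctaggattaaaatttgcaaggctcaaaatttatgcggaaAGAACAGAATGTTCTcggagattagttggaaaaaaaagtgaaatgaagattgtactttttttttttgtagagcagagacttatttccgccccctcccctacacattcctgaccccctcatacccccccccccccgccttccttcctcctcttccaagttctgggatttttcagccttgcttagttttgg
Of 5 other genes known to be induced by glucocorticoids, 4 were tested and 0 were called by edgeR, with 0 at an unadjusted p under 0.05 and 0 by DESeq2. Over all tested genes these shares were 4.04%, 21.2% and 9.13%. The log2 fold changes of the 4 were -0.39 for Tsc22d3, -0.33 for Fkbp5, -0.018 for Per1 and 0.056 for Dusp1. The list median was -0.17, and the groups of each overlapped. Sgk1 also belongs to the genes induced by serum, so immediate early genes, which rise within minutes of stimulation or handling, were counted. Of 8 tested, edgeR called 4, beside 4.04% over all genes, with 6 at an unadjusted p under 0.05 (21.2% over all genes). DESeq2 called 6, adding Fosb and Junb, beside 9.13% over all genes. Egr1, Ier2 and Jun rose, with log2 fold changes of 0.78, 0.81 and 0.66 (edgeR adjusted p = 0.00651, 0.00548 and 0.0161). Atf3, a stress-induced factor, fell by 0.46 on the log2 scale (edgeR adjusted p = 0.0257). Fos and Ier3 were not called, with log2 fold changes of -0.0065 and -0.14 (edgeR adjusted p = 0.978 and 0.457). The sum of the 8 immediate early genes was 3787 to 4415 CPM in mTOR-KO and 3051 to 3196 CPM in WT. The count of 4 fell to 2 without WT replicate 1 or WT replicate 2 and to 1 without WT replicate 3. Their part in the level of Sgk1 was not tested.

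Foxo1 encodes a forkhead factor that AKT keeps out of the nucleus (ENSMUSG00000044167, chromosome 3, 52268336 to 52353221). It was at 15.1, 16.2 and 13.4 CPM in mTOR-KO and 12.4, 14.5 and 12.5 CPM in WT. The groups overlapped, and the log2 fold change was 0.18 (95% interval -0.20 to 0.56, edgeR adjusted p = 0.583). Foxo3 encodes the related factor, a substrate of both AKT and SGK1 (ENSMUSG00000048756, chromosome 10, 42181841 to 42276755). It was the steadiest of the 8 between groups, at 104, 94.1 and 105 CPM in mTOR-KO and 105, 102 and 98.1 CPM in WT. Its log2 fold change was -0.015 (95% interval -0.23 to 0.20, edgeR adjusted p = 0.947), with a sign that turned without mTOR-KO replicate 2, to 0.022. The ratio of Foxo1 to Foxo3 counts was 0.146, 0.172 and 0.128 in mTOR-KO and 0.118, 0.142 and 0.127 in WT. These ratios overlapped (log2 difference 0.20, two-sided exact permutation test, p = 0.2, adjusted p = 0.4).

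In all, 3 of the 8 genes did not overlap between groups, which is 37.5%, beside 28.4% of all tested genes. All 3 were above WT, beside 14.5% of all tested genes, and 0 were below it, beside 13.9%. The other motifs searched were the extended E-box TCACGTGA, the cAMP response element TGACGTCA and the palindromic NRF1 site, each in 0 of the 20 windows. They were found in 0.974%, 1.79% and 0.971% of all windows. The GC box GGGCGG was in 9 of the 20 windows, of all genes but Pik3cg, and in 35.7% of all windows.

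Levels of different genes were compared per length, on the FPKM scale that the authors deposited. Akt1 had the highest level of the 8 in both groups, at 49.8 ± 3.38 FPKM in mTOR-KO and 44.1 ± 1.13 FPKM in WT (SD, n = 3 each). Pik3cd followed at 31.3 ± 5.89 and 34.0 ± 4.88 FPKM. Sgk1 stood at 25.2 ± 4.34 and 18.0 ± 0.722 FPKM and Pik3cg at 15.4 ± 0.356 and 16.0 ± 1.24 FPKM. Below these came Foxo3, at 9.05 and 9.02 FPKM, and Akt2, at 3.90 and 3.92 FPKM. Irs2 (1.89 and 1.52 FPKM) and Foxo1 (1.73 and 1.51 FPKM) were lowest. The order of the means was the same in both groups. In WT the ranges of Sgk1 and Pik3cg overlapped and in mTOR-KO those of Pik3cd and Sgk1, and in both groups those of Irs2 and Foxo1, so these neighbours cannot be ordered. Akt1 exceeded the FPKM of 93.3% of tested genes in mTOR-KO and 91.8% in WT, and Foxo1 that of 23.8% and 23.0%. The gene length behind the FPKM was 12588 bases for Pik3cd and 10234 for Sgk1, longer than the 6259 and 4903 bases of merged exons in the GENCODE M21 annotation. With the GENCODE lengths, Pik3cd and Akt1 changed places in WT, at 68.4 ± 9.81 and 58.9 ± 1.51 on the same scale.

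**Figure D2:**
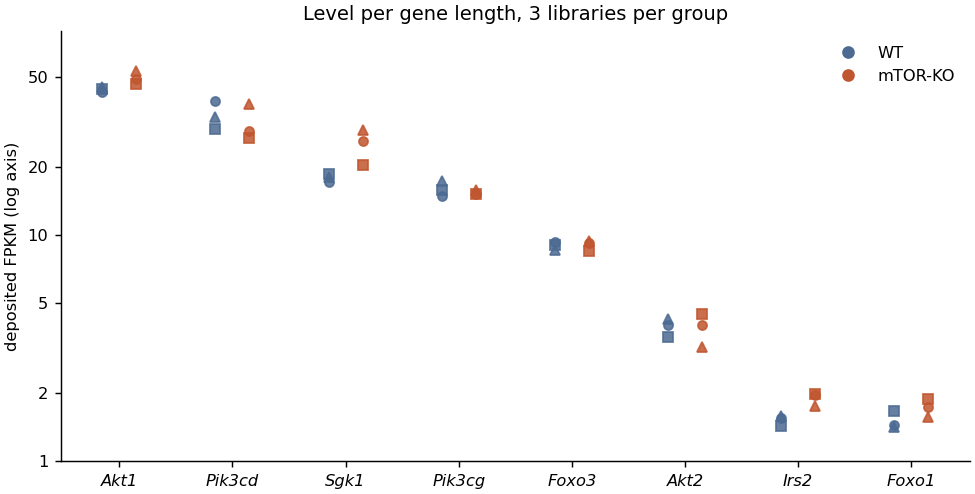
Deposited FPKM (vertical log axis) of the 8 genes in each library, ordered by their WT mean, with WT in blue and mTOR-KO in orange-brown and symbols for replicates 1 to 3. Akt1 lies near 50 FPKM and Irs2 and Foxo1 under 2 FPKM in both groups.

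The rest of the pathway was described through 36 genes in 6 lists, of which 32 were tested. Of these, 1 was called higher and 0 lower by edgeR, which is 3.13% beside 4.04% over all genes. At an unadjusted p under 0.05 were 6 (18.8% beside 21.2%), and DESeq2 called 4, beside 9.13% over all genes. The groups did not overlap for 8 of the 32 (25% beside 28.4% over all genes). These were Trib1, Tbc1d4, Pik3cb, Pik3r6, Pik3ap1, Gab1, Gab2 and Foxo4. The median log2 fold change of the 32 was 0.076. Higher calls made up 2.18% of all genes. The gene called was Trib1, a pseudokinase that brings substrates, among them the myeloid factor C/EBPα, to a ubiquitin ligase. Trib1 was at 50.6, 50.6 and 59.7 CPM in mTOR-KO and 31.3, 31.6 and 28.0 CPM in WT, without overlap. The log2 fold change of Trib1 was 0.82 (standard error 0.13, edgeR adjusted p = 0.0091). It was called in 5 of the 6 fits that left out a library, and without WT replicate 3 it missed the threshold (edgeR adjusted p = 0.0577). It was the 1 gene called of 8 tested AKT substrates and partners. Among these, Tbc1d4, which controls the traffic of glucose transporters, had a log2 fold change of 0.69 (edgeR adjusted p = 0.123).

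Among 6 other PI3K subunits 0 were called by edgeR and 2 had an unadjusted p under 0.05, beside 21.2% of all genes. DESeq2 called 2, Pik3cb and Pik3r6, beside 9.13% of all genes. Pik3cb, the widely expressed catalytic subunit p110β, was at 126, 103 and 111 CPM in mTOR-KO and 160, 139 and 153 CPM in WT. Its groups did not overlap (log2 fold change -0.41, adjusted p = 0.0703 from edgeR and 0.0193 from DESeq2). Pik3r6, the p84 regulatory subunit of p110γ, was at 43.8, 44.2 and 53.8 CPM in mTOR-KO and 27.5, 33.5 and 34.2 CPM in WT. Its groups did not overlap either (log2 fold change 0.57, adjusted p = 0.0598 from edgeR and 0.0116 from DESeq2). Pik3r5, the alternative p101 subunit of p110γ, had a log2 fold change of 0.23 (edgeR adjusted p = 0.352). Pik3r3, another regulatory subunit, was at 2.93 CPM or less in every library (log2 fold change 0.94, edgeR adjusted p = 0.367).

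Of the adaptors, 5 were tested and 0 called by edgeR, with 2 at an unadjusted p under 0.05 (21.2% over all genes). DESeq2 called 1, beside 9.13% over all genes. That gene was Pik3ap1, which encodes BCAP, an adaptor between immune receptors and PI3K. It was at 248, 241 and 206 CPM in mTOR-KO and 332, 298 and 296 CPM in WT. The groups did not overlap (log2 fold change -0.42, adjusted p = 0.0558 from edgeR and 0.00788 from DESeq2). The other gene at an unadjusted p under 0.05 was the scaffold gene Gab2, at 263, 246 and 197 CPM in mTOR-KO and 283, 277 and 290 CPM in WT, without overlap (log2 fold change -0.27, edgeR adjusted p = 0.219). The related Gab1 and Gab3 had log2 fold changes of 0.37 and 0.43, and Pik3ip1, a PI3K inhibitor, one of 0.46, with edgeR adjusted p of 0.244, 0.398 and 0.723.

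The 6 phosphatase genes, which remove the PI3K lipid or dephosphorylate AKT, gave 0 calls by edgeR, 0 at an unadjusted p under 0.05 and 0 by DESeq2. Over all tested genes these shares were 4.04%, 21.2% and 9.13%. Inpp5d, the leukocyte lipid phosphatase SHIP1, was at 159 to 178 CPM in mTOR-KO and 165 to 184 CPM in WT. The largest changes were those of Inpp4b (-0.41) and Phlpp2 (0.34) on the log2 scale. Inpp4a, chosen after its values were seen, was at 68.9 CPM in mTOR-KO replicate 3 and at 26.4 CPM in each of the other mTOR-KO libraries, on both sides of the WT range of 34.3 to 45.3 CPM. PDK1 (Pdpk1) and the mTORC2 subunits likewise gave 0 calls by edgeR, 0 at an unadjusted p under 0.05 and 0 by DESeq2, beside the same shares. Rictor, the subunit that defines mTORC2, was at 83.8, 66.2 and 102 CPM in mTOR-KO and 74.8, 74.9 and 71.4 CPM in WT (log2 fold change 0.19, edgeR adjusted p = 0.504). Sgk3 and Foxo4, relatives of Sgk1 and of the FOXO genes, had log2 fold changes of 0.077 and 0.27 (edgeR adjusted p = 0.715 and 0.244), and Foxo6 had 0 counts throughout.

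**Figure D3:**
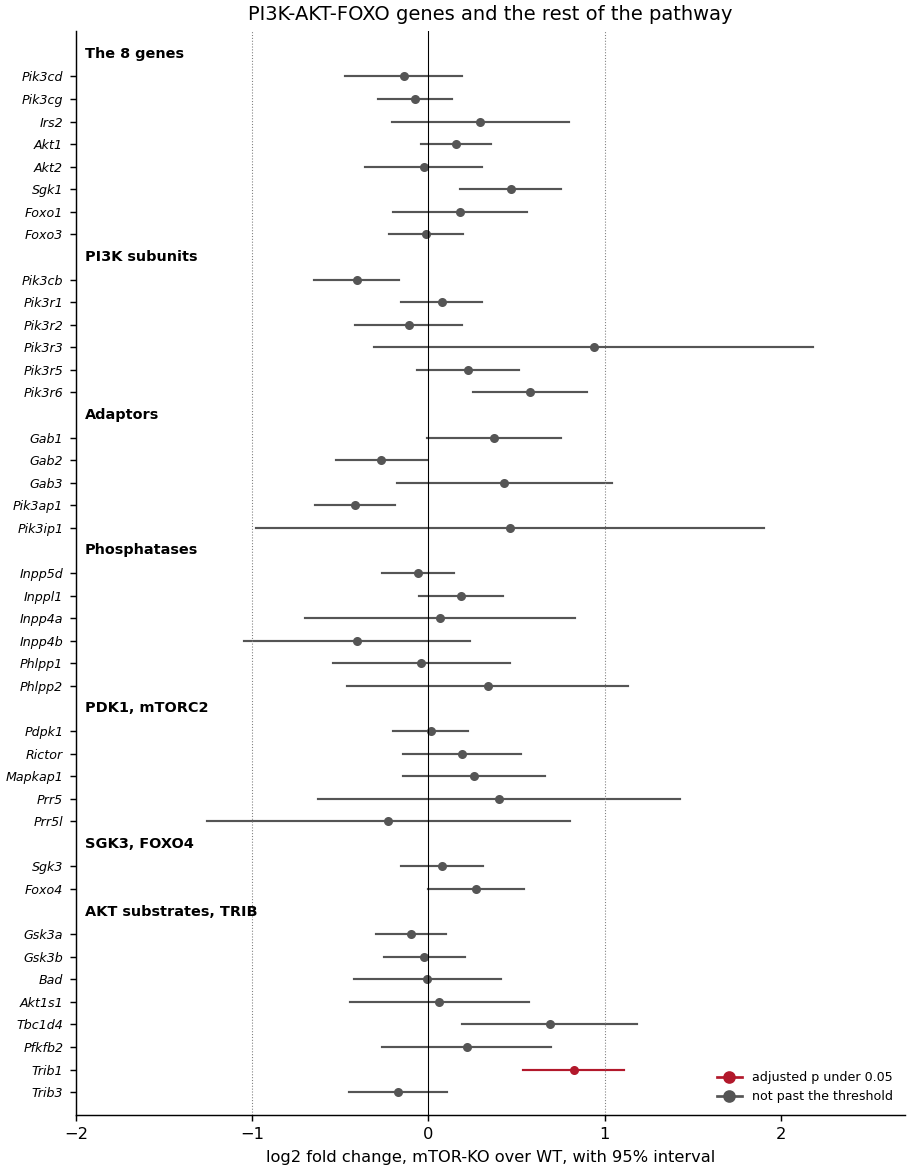
Log2 fold change of mTOR-KO over WT (points, horizontal axis) with 95% intervals (lines) from edgeR for the 8 genes and 32 other pathway genes, grouped by role, with dotted lines at 2-fold. Trib1 (0.82) is the 1 gene with an adjusted p under 0.05, in red.

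Genes known as FOXO targets, mostly from lymphocytes, liver and muscle, were counted as a readout next to the FOXO genes. Of 23 listed, 22 were tested, with 9 higher and 13 lower in the libraries labelled mTOR-KO and a median log2 fold change of -0.069. EdgeR called 3, or 13.6% beside 4.04% over all genes, with 2 higher beside 2.18% and 1 lower beside 1.87%. At least 2-fold was 1 of them, Ccr7, beside 1.69%. At an unadjusted p under 0.05 were 9 of the 22 (40.9% beside 21.2%), and DESeq2 called 4, beside 9.13% over all genes. The groups did not overlap for 12 (54.5% beside 28.4%), with 4 above WT and 8 below it. Txnip, an inhibitor of thioredoxin and of glucose uptake, rose from 79.9, 87.2 and 70.0 CPM in WT to 137, 118 and 138 CPM in mTOR-KO (log2 fold change 0.73, edgeR adjusted p = 0.00994). Ccr7, the receptor for lymph node chemokines, was at 58.3, 57.6 and 60.2 CPM in mTOR-KO and 13.6, 29.4 and 30.6 CPM in WT (log2 fold change 1.26, edgeR adjusted p = 0.0314). Il7r, the interleukin 7 receptor chain, went the other way, from 86.9, 110 and 105 CPM in WT to 67.2, 56.9 and 56.8 CPM in mTOR-KO. Its log2 fold change was -0.74 (edgeR adjusted p = 0.0136).

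The classical FOXO targets of cell cycle and cell death were not called by edgeR. Cdkn1b, a cell cycle inhibitor, had a log2 fold change of 0.31, Bcl2l11, the death factor BIM, of 0.41, and Bbc3, the death factor PUMA, of -0.47 (edgeR adjusted p = 0.382, 0.376 and 0.0676), and DESeq2 called Bbc3 (adjusted p = 0.019). Insr, the insulin receptor gene, had one of -0.29 (edgeR adjusted p = 0.128). The count of 3 depended on single libraries. It was 2 without any 1 of the mTOR-KO libraries or without WT replicate 1, 1 without WT replicate 2 and 0 without WT replicate 3. Txnip and Il7r were each called in 4 of these 6 fits, and Ccr7 in 1. Ccr7 is also among the dendritic cell markers, whose sum was higher in mTOR-KO, and the part of those cells in its change was not tested. Il7r and Ccr7 are also expressed by T cells. Of the T cell genes, Cd3e was at 0 counts in every library, and Cd3d and Trac were at 3 counts or fewer. Which cells carried the Il7r and Ccr7 transcripts was not tested.

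**Figure D4:**
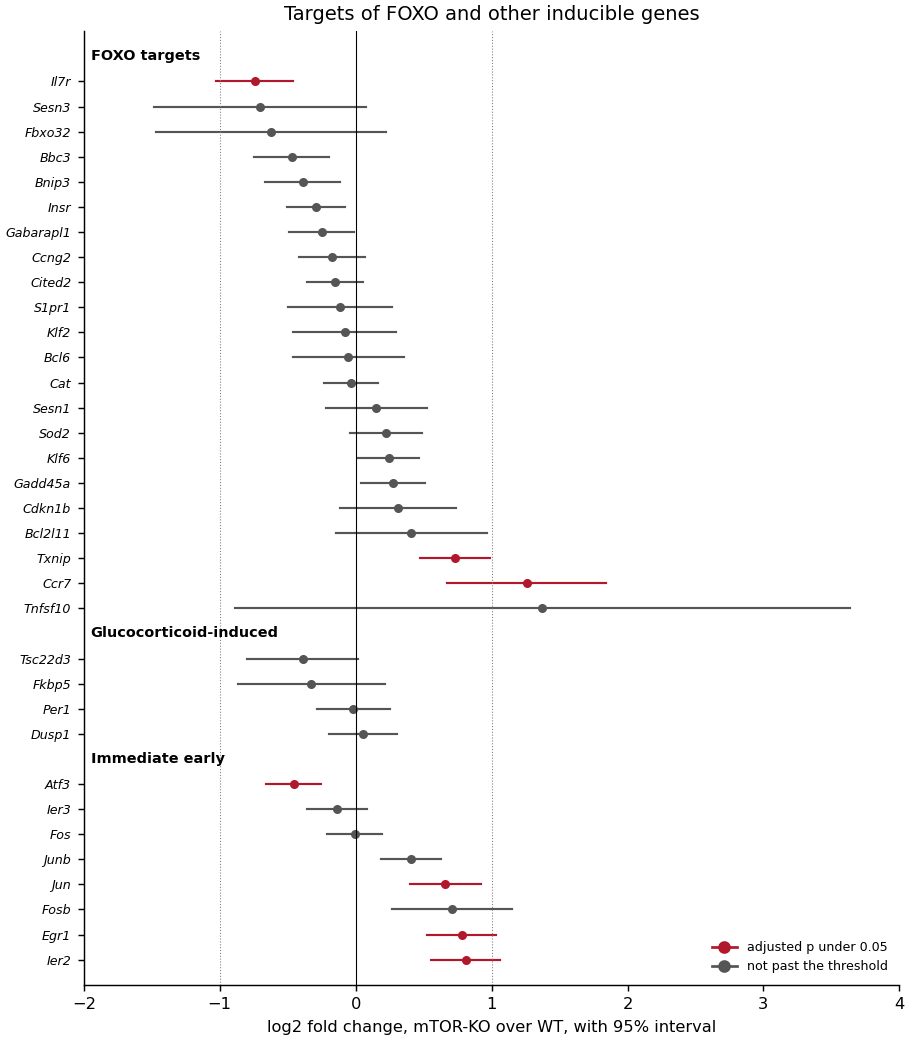
Log2 fold change of mTOR-KO over WT (points, horizontal axis) with 95% intervals (lines) from edgeR for 22 FOXO targets, 4 genes induced by glucocorticoids and 8 immediate early genes, with dotted lines at 2-fold and adjusted p under 0.05 in red. The FOXO targets spread to both sides of 0, from Il7r at -0.74 to Tnfsf10 at 1.37, a gene at 1.47 CPM or less in every library, and the glucocorticoid-induced genes lie between -0.39 and 0.056.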

How the data were processed

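RNA of M-MDSCs was sequenced in 3 libraries per group, and replicate and group were taken from the sample titles. The authors deposited whole-number read counts per gene without normalization, and FPKM values per gene. Per the study's methods, reads were aligned to mm10 with Bowtie2 and counted with HTSeq, while the submitters' processing notes name HISAT2 2.0.4, StringTie 1.3.0, GRCm38.p4 and mm9. Versions of Bowtie2 and HTSeq, the strand setting and the annotation release were not given in the sources used here. The deposited FPKM equal counts divided by the library's summed counts and by 1 length per gene that the table does not list. Of 36 columns with per-sample values 24 repeat these and were not used. The authors' own comparison (group means, log2 ratio, p and q values) was not used.

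Counts were analysed in R 4.3.3 with edgeR 4.0.16: filterByExpr (minimum count 10, minimum total 15), which left 12537 of 34745 genes, TMM scaling (factors 0.986 to 1.01), and the quasi-likelihood F test between groups, without a block, adjusted over all tested genes, with the call at an adjusted p of 0.05. The biological coefficient of variation was 19.0%. The same steps were run on simulated data in which the changed genes differed at least 2-fold, more than any of the 8 genes. That run does not bear on smaller changes. Ratios of genes within a library were compared by exact permutation. DESeq2 1.42.0, RLE scaling, other filters, left-out libraries and a replicate block were alternatives. Promoter windows and gene models are from RefSeq (GRCm38.p6) and GENCODE M21, on the same build as mm10. Of the 8 gene IDs all were found in GENCODE and 7 had the same position, all but Irs2. The text names the 8 genes, Mtor and Lyz2, and from each list the genes called by edgeR. From most lists without a call, some of the genes with the largest changes are named. Other named list genes are examples chosen after their values were seen. The members and lists were chosen with earlier results of these data known. The promoters printed were chosen after their matches were seen. One gene of the FOXO target list is not reported here and is left out of its counts.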

Additional observations from a re-analysis of the deposited data

How the results depend on the processing

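The 8 log2 fold changes kept their direction and their side of the threshold under RLE scaling, both other filters on low counts and the replicate block. With DESeq2 the same held except for Sgk1 (0.46, adjusted p = 0.0188, called). With 1 library left out at a time, Sgk1 lay between 0.35 and 0.59 and was called in 1 of 6 fits, Akt2 between -0.15 and 0.094 and Foxo3 between -0.050 and 0.022, both with turned signs (Akt2 at 0.094 without mTOR-KO replicate 3 and 0.034 without WT replicate 3, Foxo3 at 0.022 without mTOR-KO replicate 2), and the number of the 8 called was 0 to 1. With a library left out, the log2 differences of the ratios ranged from -0.34 to -0.0054 for Akt2 to Akt1, -0.20 to 0.084 for Pik3cd to Pik3cg, 0.083 to 0.30 for Foxo1 to Foxo3 and 0.24 to 0.39 for Sgk1 to Akt1. Genes called numbered 507 in all, 173 to 513 with a library left out, 1144 with DESeq2 and 279 with the replicate block. At 2-fold or more they numbered 212, 114 to 229 with a library left out and 357 with DESeq2. DESeq2 called 2 PI3K subunits, 1 adaptor, 1 macrophage marker and 1 erythroid marker, and both other filters called 1 adaptor, each where the main test called 0. With a library left out, calls ranged from 0 to 1 among AKT substrates, 0 to 2 among FOXO targets, 1 to 4 among immediate early genes, 1 to 5 among monocyte, 1 to 3 among neutrophil, 1 to 2 among dendritic and 1 to 3 among mast cell and basophil markers, and 3 monocyte markers were called with the replicate block. The cause of these shifts was not tested. Same-numbered libraries did not deviate together from their group means (correlations of -0.076, -0.025 and -0.061). With 3 libraries per group this cannot exclude a batch shared by same-numbered libraries. The replicate block changed no call of the 8 genes. With GENCODE exon lengths, chosen after seeing the data, Pik3cd ranked 1 and Akt1 ranked 2 in WT, and Foxo1 ranked 7 and Irs2 ranked 8 in both groups. The deposited position of Irs2 starts at 10986980, whereas GENCODE starts the gene at 10984681. The length behind its FPKM was 4024 bases, against 6323 in GENCODE. Its counts therefore belong to a shorter gene model, and its rank with the GENCODE length is not a like comparison. Counting error was above the spread within groups for Irs2 alone of the 8 genes in both groups (10.4% against 7.08% and 5.56%).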
